A study of Caenorhabditis elegans with 2 samples.

Results

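The intergenic peaks described here were the reproducible CEH-19 ChIP peaks on the autosomes of Caenorhabditis elegans whose summit lay outside protein-coding genes, outside their promoters and away from small RNA genes. The location rule kept a summit that was inside no protein-coding gene, outside the window from 500 bp upstream to 100 bp downstream of every protein-coding 5' end, and more than 200 bp from any tRNA, snoRNA or snRNA gene. The location rule itself used no measured level, and 211 peaks met it, out of 806 autosomal, 1091 nuclear and 1112 reproducible peaks in all. The reproducible peaks were, however, the strongest regions of the list called on both libraries together, with signals of 113 or more. Signal therefore entered the choice of peaks before location did. Chromatin came from whole late embryos of both sexes, 5 hours old and synchronized by egg bleaching, in 2 biological replicates, numbered 2 and 3, of 1 group. The embryos were of strain OP739, which is mutant for unc-119, allele tm4063, and carries the transgene wgIs739. That transgene encodes CEH-19 joined to TY1, EGFP and 3xFLAG tags together with a working unc-119 copy. An antibody against GFP was used, so the peaks report a tagged protein made from a transgene. Whole embryos were used, so signal from different cell types cannot be told apart. The files hold peak lists with no read counts, so the depth behind a peak is unknown.

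CEH-19 belongs to the homeodomain transcription factors and has a known role in a pharyngeal motor neuron. Homeodomains commonly bind short sites with a TAAT core. ChIP-seq finds DNA that was cross-linked, directly or through other proteins, to the precipitated protein. In the compact worm genome many regulatory elements lie close to 5' ends, but enhancers and the promoters of noncoding RNA genes can also lie farther out, between genes. The gap between neighbouring genes is called divergent where both are transcribed away from it, convergent where both are transcribed towards it, and tandem where both point the same way.

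Sequences of the summit and 50 bases to each side are given first for the peaks on which the later sequence results can be seen. All shown are on chromosomes II to V and on the plus strand of ce11, read from the RefSeq copy of that assembly, and a peak is named by its left and right protein-coding neighbours. Capitals mark every copy of the words GAGAG and ACACAC or of their reverse complements, CTCTC and GTGTGT. The first 3 were the strongest peaks there, 1 per gap, that hold the first word and had under 50% of the shown bases masked as repeats.
K12H4.6 and K12H4.5, chrIII:8043913-8044013: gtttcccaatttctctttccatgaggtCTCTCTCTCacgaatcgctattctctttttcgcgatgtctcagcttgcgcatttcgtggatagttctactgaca
Y17D7C.2 and asp-19, chrV:18723724-18723824: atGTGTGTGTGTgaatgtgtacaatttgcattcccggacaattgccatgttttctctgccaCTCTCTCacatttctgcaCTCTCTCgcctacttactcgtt
ntl-9 and flh-2, chrIII:4947562-4947662: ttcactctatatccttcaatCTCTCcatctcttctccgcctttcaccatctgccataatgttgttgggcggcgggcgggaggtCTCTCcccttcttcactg

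In some peaks the word formed part of a long run. The next 2 were the strongest further ones with 6 or more GA or TC units in a row. In the window between T04C4.3 and fnip-2, 68.3% of bases were masked as repeats. The peak between hmg-1.1 and Y54G11A.2 lay outside the set of named peaks and was chosen after its values were seen.
T04C4.3 and fnip-2, chrIV:2219488-2219588: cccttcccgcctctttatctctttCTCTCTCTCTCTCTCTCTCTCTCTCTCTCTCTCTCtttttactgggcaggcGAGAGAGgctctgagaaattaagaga
hmg-1.1 and Y54G11A.2, chrII:14251558-14251658: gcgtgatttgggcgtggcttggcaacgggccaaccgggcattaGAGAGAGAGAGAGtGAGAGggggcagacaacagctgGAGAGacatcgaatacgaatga
The following 2 were the strongest not yet shown that hold the second word, and the last of this set, between pef-1 and fbxa-55, was the strongest such peak in masked repeat sequence with the first word.
mec-12 and C44B11.4, chrIII:3140408-3140508: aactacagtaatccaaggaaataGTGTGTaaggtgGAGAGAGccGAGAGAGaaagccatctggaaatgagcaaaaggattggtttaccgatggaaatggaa
C17H12.10 and ceh-48, chrIV:6809884-6809984: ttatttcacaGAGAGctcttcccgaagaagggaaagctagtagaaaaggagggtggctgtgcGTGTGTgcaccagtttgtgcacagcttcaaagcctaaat
pef-1 and fbxa-55, chrIII:931556-931656: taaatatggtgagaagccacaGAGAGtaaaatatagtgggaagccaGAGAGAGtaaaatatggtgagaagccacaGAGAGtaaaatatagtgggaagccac

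Other strong peaks held neither word. The next 2 are shown because they carry GTTCGANNC, the letters at the core of the B box, which is the internal promoter element that RNA polymerase III factors bind in tRNA genes. Capitals mark that match. The last is a peak in repeat sequence, shown with no capitals.
alh-3 and hrg-5, chrIV:11026152-11026252: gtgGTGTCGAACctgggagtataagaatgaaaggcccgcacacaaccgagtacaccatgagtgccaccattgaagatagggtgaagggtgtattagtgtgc
cysl-2 and dhs-8, chrII:14496997-14497097: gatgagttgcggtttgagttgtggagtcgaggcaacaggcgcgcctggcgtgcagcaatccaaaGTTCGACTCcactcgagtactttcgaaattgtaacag
eel-1 and ivph-3, chrIV:3050610-3050710: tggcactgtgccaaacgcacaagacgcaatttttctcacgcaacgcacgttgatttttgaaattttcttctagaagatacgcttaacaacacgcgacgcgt

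The 211 intergenic peaks were spread over all 5 autosomes and over 192 gaps between protein-coding genes. They made up 26.2% of autosomal peaks, while sequence meeting the location rule covered 23.2 Mb, or 28.1% of the autosomes. That is 9.1 peaks per Mb, against 26.9 per Mb in promoters and 3.67 per Mb in protein-coding genes. The list called on both libraries together held 5991 autosomal regions that met the rule, of which 3.52% were reproducible peaks, beside 3.29% of all autosomal regions of that list. By that measure the intergenic regions were called about as often as autosomal regions in general. Promoter regions, at 6.56%, and regions near small RNA genes, at 36.5%, were called more often, and regions in protein-coding genes, at 1.28%, less often. Chromosome II and chromosome III held 44 peaks each, chromosome IV held 43, and chromosomes I and V held 40 each. Density was highest on chromosome III, with 13.3 per Mb of eligible sequence, and lowest on chromosome V, with 6.28 per Mb. The X chromosome, which the rule leaves out, had 102 peaks of the same kind, or 15.4 per Mb.

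Most of these peaks were modest in strength, and a few were among the strongest of the study. The signal value, the peak caller's own score for the pooled libraries, ran between 113 and 1144 with a median of 139, against a median of 156 in 259 autosomal promoter peaks. The median in 181 autosomal peaks in protein-coding genes was 137. The quartiles of the intergenic peaks were 124 and 164, so most lay within a narrow band above the lowest reproducible signal of 113. There were 23 intergenic peaks above a signal of 200 and 7 above 300, and 4 were among the 50 strongest nuclear peaks. Among the stronger 50% of nuclear reproducible peaks were 70 of 211 intergenic peaks (33.2%), against 143 of 259 promoter peaks (55.2%). The odds ratio was 0.404 (95% interval 0.271 to 0.597, adjusted p = 5.4e-06, two-sided Fisher's exact test). All adjusted p-values of shares come from two-sided Fisher's exact or McNemar tests, or a sign test, with Benjamini-Hochberg adjustment over 24 tests, and the units are peaks from a single pair of libraries. With replicate 2 left out, so that the strongest regions of replicate 3 alone were used, the shares were 39.7% and 48.4% and the adjusted p was 0.0857 in the same Fisher's exact test.

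**Figure D1:**
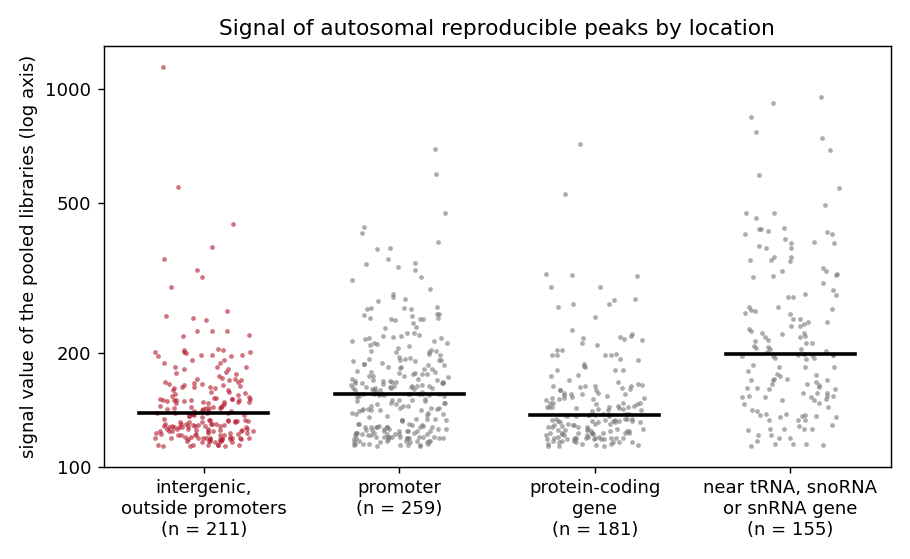
Signal value of each autosomal reproducible peak on a log axis by location of its summit, with 1 point per peak, black lines at the medians and the intergenic peaks on the left in red. The median of the intergenic peaks was 139, against 156 in promoters, 137 in protein-coding genes and 199 near tRNA, snoRNA or snRNA genes.

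Both replicates held most of the intergenic peaks, at different levels of signal. Summits within 100 bp were found for 199 of the 211 peaks in replicate 2, for 204 in replicate 3, and for 193 in both, with the 2 summits a median of 41 bp apart. Signal ran between 17.7 and 342 with a median of 57 in replicate 2, and between 24.4 and 796 with a median of 87.8 in replicate 3. It was higher in replicate 3 for 160 of the 193 peaks and higher in replicate 2 for 33. The log2 ratio of replicate 3 to replicate 2 had a median of 0.61 with an SD of 0.605 over these peaks, close to the median of 0.53 and SD of 0.511 over 552 other autosomal peaks. The signal values carry no stated normalization, so the shift cannot be read as a difference in occupancy.

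A smaller share of intergenic peaks than of promoter peaks ranked high in both replicates at once. Taking the 1112 strongest regions of each replicate, as many as there are reproducible peaks, 92 of 211 intergenic peaks (43.6%) were in both sets, against 145 of 259 promoter peaks (56.0%) and 53.5% of all reproducible peaks. Autosomal peaks in protein-coding genes, outside promoters and away from small RNA genes, had a share near the intergenic one, 82 of 181 (45.3%), which was not tested. The odds ratio against promoters was 0.608 (95% interval 0.414 to 0.891, adjusted p = 0.014, two-sided Fisher's exact test). Of the stronger 105 intergenic peaks 76 were in both sets, and of the weaker 106 only 16 were. This comparison therefore overlaps with that of pooled strength and is not a separate result. In 11 cases neither replicate ranked the peak that high, and 1 peak, between C32E8.4 and tppp-1, had no summit within 100 bp in either replicate. That peak was singled out after its values were seen. The reproducible list was itself derived from the replicate lists, for peaks of every location alike.

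**Figure D2:**
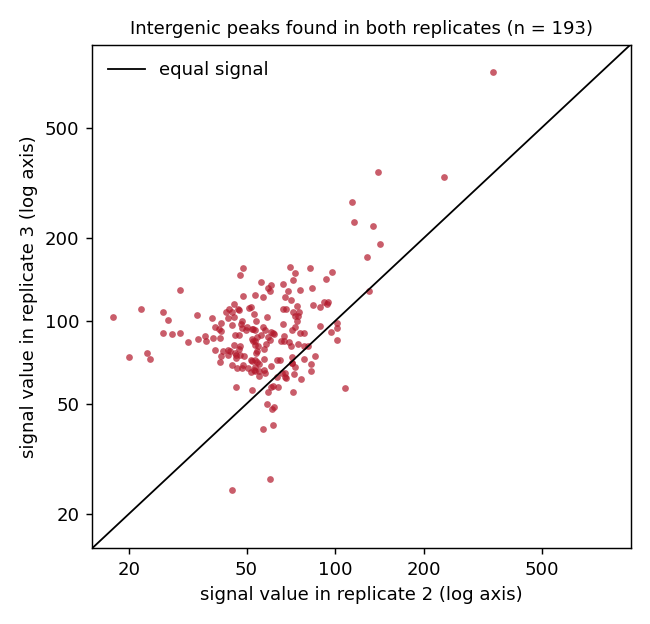
Signal value in replicate 3 against replicate 2, both on log axes, for the 193 intergenic peaks found in both, with 1 point per peak and a line at equal signal. Most points, 160 of 193, lie above the line, and the strongest peak, at 342 in replicate 2 and 796 in replicate 3, lies apart from the rest.

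The strongest intergenic peak lay between K12H4.6 and K12H4.5, both uncharacterized genes in RefSeq, on chromosome III with its summit at 8043963. Its signal was 1144, the 3rd highest of all reproducible peaks, and its replicate signals were 342 in replicate 2 and 796 in replicate 3. The summit was 524 bp upstream of the 5' end of K12H4.5, just outside the promoter window. The 14 intergenic peaks with a summit 500 to 600 bp upstream of a 5' end had signals of 118 to 1144 with a median of 155, and the 26 promoter peaks at 400 to 500 bp had signals of 115 to 317 with a median of 161.

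The next peak in strength lay in a convergent gap on chromosome IV. It stood between alh-3, a formyltetrahydrofolate dehydrogenase gene, and hrg-5, a heme transporter gene, with a signal of 551. Its replicate signals were 233 in replicate 2 and 331 in replicate 3, among the 24 strongest regions of each. The summit fell inside F36H1.17, an 89 bp gene at chrIV:11026131-11026219 that RefSeq lists as unclassified noncoding RNA, and its window holds the GTTCGANNC match printed above. That match occurred within 100 bp of the summit, on either strand, in 5 of 211 intergenic peaks (2.37%), 4 of 211 low-ranked regions (1.9%), 1 of 259 promoter peaks and 81 of 155 peaks near small RNA genes (52.3%). The share in intergenic peaks was near that of the low-ranked regions, so the letters were rare in this class as a whole. The peaks between cysl-2 and dhs-8 and between set-1 and jhdm-1 were the other strong ones to hold it.

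Further strong peaks lay in gaps of different lengths, some of them in repeats. Between prhg-1 and nas-30, a zinc metalloproteinase gene, on chromosome I, the signal was 440, with 140 in replicate 2 and 346 in replicate 3, at 4965 bp upstream of nas-30. Beside eel-1, a HECT ubiquitin ligase gene, 2 peaks with summits 238 bp apart lay in a gap of 3623 bp, with signals of 382 and 251. Their called regions overlap, and each was counted as a peak. Between irld-55 and Y37A1B.7 the signal was 355, with 134 in replicate 2 and 221 in replicate 3. That summit fell inside the noncoding RNA gene Y37A1B.330, 9791 bp from the nearest 5' end, and a weaker peak of 136 in the same gap, inside Y37A1B.332, was the farthest of all at 10904 bp. The third of the 3 farthest was in the gap between sri-5, a chemoreceptor gene, and ztf-6, a zinc finger gene, 8282 bp upstream of ztf-6, with a signal of 174.

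The next peaks lay beside genes of varied function. Upstream of usp-4, in its gap with lin-45, the worm Raf kinase gene, the signal was 299, with 128 in replicate 2 and 170 in replicate 3. The summit was 670 bp upstream of usp-4, a ubiquitin hydrolase gene. Between F08G2.5 and the insulin-related gene ins-37 it was 258, with nearly equal replicate signals of 130 in replicate 2 and 128 in replicate 3. Near the histone methyltransferase gene set-1 and the histone demethylase gene jhdm-1 it was 205, with a log2 ratio of replicate 3 to replicate 2 of -0.044. Upstream of swsn-7, a SWI/SNF subunit gene, in its gap with nrf-6, it was 228, with 160 in replicate 3 and no summit within 100 bp in replicate 2. Upstream of cbp-1, the worm CBP/p300 acetyltransferase gene, it was 203, with 48.8 in replicate 2 and 155 in replicate 3. Replicate 3 was higher in 22 of the 25 strongest peaks and replicate 2 in 2. In both replicates, 22 of the 25 were among the 1112 strongest regions.

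The remaining peaks among the 25 strongest had signals of 198 to 331. They lay between F54F12.1 and Y39E4B.6 (331), pef-1, a protein phosphatase gene, and fbxa-55 (317), and Y17D7C.2 and asp-19, a protease gene (247). Peaks of 245, 229 and 228 lay between ntl-9, a CCR4-NOT subunit gene, and flh-2, between syx-16 and ZC155.4, and between cysl-2 and dhs-8. Those between T04C4.3 and fnip-2, between B0238.9 and Y49G5A.1 and between sup-26 and R10E4.3 had 223, 222 and 204. A signal of 201 was found each between mec-12, an alpha-tubulin gene of touch neurons, and C44B11.4, between C17H12.10 and ceh-48, and between ssu-2 and Y67A10A.7. The last were between aagr-1 and D2096.7, at 200, and between C06A6.7 and C06A6.2, at 198. By gap type these 25 were 11 divergent, 11 tandem and 3 convergent. In the 25, 12 (48%) held GAGAG and 6 (24%) lay in masked repeats, against 103 (55.4%) and 15 (8.06%) of the other 186, and neither contrast was tested.

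Several gaps held more than 1 intergenic peak. A single peak lay in 175 gaps, 2 peaks in 15 and 3 peaks in 2. The gap of 15313 bp between F54F12.1 and Y39E4B.6 held peaks of 331, 119 and 177, with the first 2 summits 206 bp apart. The called regions of those 2 peaks overlap, and each was counted as a peak. The gap of 13888 bp between rho-1, a small GTPase gene, and zip-7, a bZIP gene, held peaks of 117, 133 and 145 over 6239 bp. Another reproducible peak lay within 500 bp of 8 of the 211 summits.

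Distances to genes were compared with those of 211 low-ranked regions. These are the weakest autosomal regions of the pooled list that meet the same rule and overlap no reproducible peak, with signals of 29.7 to 30.4. The nearest 5' end was a median of 1671 bp from an intergenic summit (quartiles 1021 and 2888) and 2160 bp from a low-ranked one (1185 and 3691). Within 1 kb of a 5' end lay 51 intergenic peaks (24.2%) and 42 low-ranked regions (19.9%), an odds ratio of 1.28 with a 95% interval of 0.788 to 2.09 (adjusted p = 0.363, two-sided Fisher's exact test), so a difference was not detectable in these numbers. The nearest 3' end was a median of 3454 bp away for intergenic peaks and 2482 bp for low-ranked regions. A 3' end lay within 500 bp of 18 intergenic peaks (8.53%), against 39 low-ranked regions (18.5%), with an odds ratio of 0.412 (95% interval 0.213 to 0.77, adjusted p = 0.00653, two-sided Fisher's exact test). In replicate 2 alone, without replicate 3, that difference was -6.02 percentage points (adjusted p = 0.139, Fisher's exact test). Over the intergenic peaks above their median signal it was -6.1 points (adjusted p = 0.227, Fisher's exact test).

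Intergenic peaks lay mostly on the upstream side. The nearest 5' end pointed away from the summit, so that the peak was upstream of it, in 187 of 211 intergenic peaks (88.6%) and in 151 of 211 low-ranked regions (71.6%), an odds ratio of 3.09 (95% interval 1.8 to 5.44, adjusted p = 3.4e-05, two-sided Fisher's exact test, added after the values were seen). Of the intergenic peaks, 50 were 500 to 1000 bp upstream, 59 were 1 to 2 kb upstream and 44 were 2 to 3 kb upstream. Downstream of the nearest 5' end lay 24 intergenic peaks, most of them between 1 and 5 kb away. By gap type, 92 of 92 peaks in divergent, 94 of 111 in tandem and 1 of 8 in convergent gaps were upstream. In a divergent gap both flanking 5' ends point away from the summit and neither flanking 3' end borders the gap. The comparisons of side, 3' ends and gap type therefore overlap and are not separate results.

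**Figure D3:**
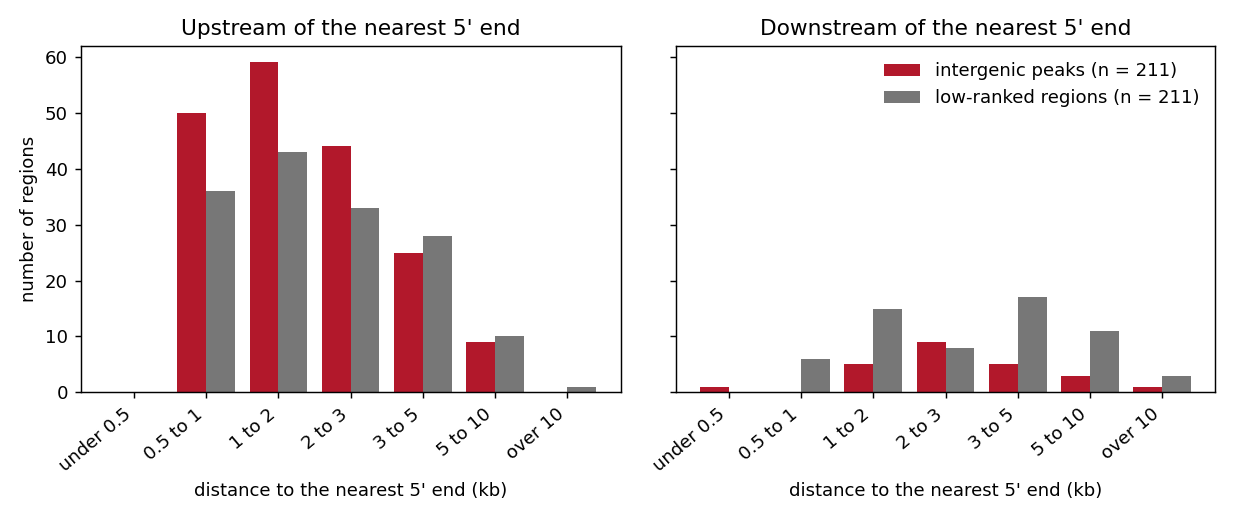
Number of regions by distance of the summit to the nearest protein-coding 5' end, upstream on the left and downstream on the right, with intergenic peaks in red and low-ranked regions in grey (211 of each). Upstream bins up to 3 kb hold more intergenic peaks than low-ranked regions, 50 against 36, 59 against 43 and 44 against 33, and the downstream bins beyond 3 kb hold fewer.

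Gaps between divergent genes held more intergenic peaks than low-ranked regions. Divergent gaps held 92 of the 211 intergenic peaks (43.6%, 95% interval 36.8 to 50.6), against 67 low-ranked regions (31.8%) and 30.8% of eligible sequence. The odds ratio against the low-ranked regions was 1.66 (95% interval 1.1 to 2.52, adjusted p = 0.021, two-sided Fisher's exact test). This comparison was added after the values were seen. The difference of 11.8 percentage points was 8.33 points without replicate 3 (adjusted p = 0.112, Fisher's exact test) and 6.34 points over the intergenic peaks above their median signal (adjusted p = 0.326, Fisher's exact test). It was 10.6 points with a promoter window of 1000 bp (adjusted p = 0.0831, Fisher's exact test) and 9.73 points without peaks near another noncoding RNA gene or pseudogene (adjusted p = 0.0846, Fisher's exact test), so the call was lost in 4 of 8 alternatives. Tandem gaps held 111 intergenic peaks (52.6%) and 131 low-ranked regions (62.1%). Convergent gaps, which contain no flanking 5' end, held 8 intergenic peaks (3.79%) and 13 low-ranked regions (6.16%), with an odds ratio of 0.601 (95% interval 0.211 to 1.6, adjusted p = 0.371, Fisher's exact test). Against all 5691 pooled regions that meet the rule and overlap no reproducible peak, the convergent share differed by -6.49 points (adjusted p = 0.00168, Fisher's exact test). Per Mb of eligible sequence there were 12.9 intergenic peaks in divergent, 8.82 in tandem and 2.33 in convergent gaps. Of the 8 convergent peaks, 3 were among the 25 strongest, between alh-3 and hrg-5, irld-55 and Y37A1B.7, and aagr-1 and D2096.7. The last sat in a gap of only 350 bp.

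**Figure D4:**
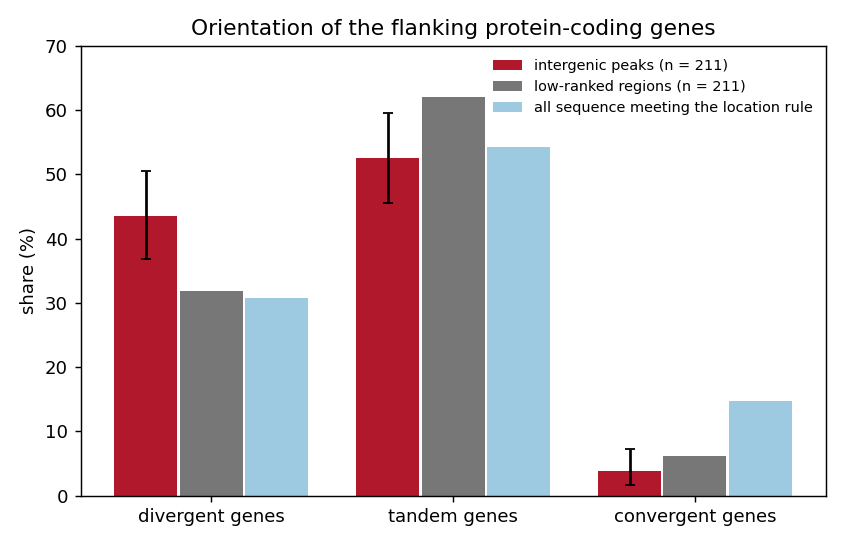
Share of intergenic peaks (red, with exact 95% intervals), low-ranked regions (grey) and eligible sequence (blue) by orientation of the flanking protein-coding genes. Divergent gaps hold 43.6% of intergenic peaks, against 31.8% of low-ranked regions and 30.8% of sequence, and convergent gaps hold 3.79%, against 6.16% and 14.8%.

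Noncoding RNA genes of other kinds were more often close to intergenic peaks than to low-ranked regions. Another noncoding RNA gene or pseudogene lay within 200 bp of 76 intergenic peaks (36.0%), against 45 low-ranked regions (21.3%), an odds ratio of 2.07 (95% interval 1.32 to 3.29, adjusted p = 0.00238, two-sided Fisher's exact test). The kinds differed too, although these counts were not tested. Genes that Ensembl types only as ncRNA were near 68 intergenic peaks and 15 low-ranked regions, and the summit was inside such a gene for 42 and 6. Pseudogenes were near 4 intergenic peaks and 23 low-ranked regions, and piRNA genes near 1 and 5. Long intergenic noncoding RNA (lincRNA) genes were near 5 intergenic peaks and 2 low-ranked regions. MicroRNA genes were near 2 and 0. Both peaks between chd-7 and W09C3.4 on chromosome I, with signals of 156 and 148, lay at linc-91, a gene singled out after its values were seen.

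The nearest noncoding RNA gene or pseudogene at these 76 summits was short, with a median length of 149 bp. Among the 25 strongest peaks, 11 had one within 200 bp. Besides F36H1.17 and Y37A1B.330, summits fell inside F08G2.13 (75 bp, beside ins-37), srpr-2.1 (299 bp, between syx-16 and ZC155.4), K10H10.14 (284 bp, between cysl-2 and dhs-8), C08B11.11 (386 bp, between swsn-7 and nrf-6) and C06A6.14 (213 bp, between C06A6.7 and C06A6.2). C26E6.15, C17H12.31 and H34C03.18 lay 127, 59 and 199 bp from a summit, and a pseudogene, WBGene00045366, lay 3 bp from the peak next to asp-19. The 76 peaks with such a gene and the 135 without one had the same median signal of 139, and GC medians of 51.5% and 50.5%. GAGAG was at 38 of the 76 summits (50%) and 77 of the 135 (57%).

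More intergenic peaks than low-ranked regions lay in the central 50% of a chromosome's length, 120 (56.9%) against 89 (42.2%), with an odds ratio of 1.81 (95% interval 1.21 to 2.71, adjusted p = 0.00618, two-sided Fisher's exact test), while 47.3% of eligible sequence lay there. Of the 76 peaks near another noncoding RNA gene or pseudogene 55 (72.4%) were in that central part, against 65 of the other 135 (48.1%). Over those 135 alone the difference from low-ranked regions was 5.97 percentage points (adjusted p = 0.347, Fisher's exact test).

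Repeat sequence was less common at intergenic summits. Soft-masked bases made up 50% or more of the bases within 50 bp of 21 intergenic summits (9.95%) and 59 low-ranked summits (28.0%), with an odds ratio of 0.286 (95% interval 0.157 to 0.502, adjusted p = 7.4e-06, two-sided Fisher's exact test), and 41.4% of all eligible sequence is masked. No masked base lay in the window of 107 intergenic and 49 low-ranked summits. The 51 bases around the summit occurred more than once in the genome for 6 intergenic peaks and 10 low-ranked regions. They were found 16 times for the stronger peak beside eel-1, 47 times for the peak between Y55B1BR.8 and Y55B1BR.6, and 2 times for the peak at srpr-2.1. The peak between Y55B1BR.8 and Y55B1BR.6 was named after its values were seen. Reads from such copies can be placed at more than 1 site, and how they were handled is not given in the sources used here. Runs of 6 or more GA or TC units were at 9 intergenic summits, 0 low-ranked summits and 2 of 259 promoter summits. Runs of CA or TG units were at 10, 1 and 2.

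Summits of intergenic peaks were richer in G and C than the sequence beside them. The median GC content within 50 bp of the summit was 50.5% for intergenic peaks (quartiles 46.0 and 55.4) and 39.6% for low-ranked regions (32.7 and 43.6), while all eligible sequence had 34.3%. In windows of the same width 300 bp away, the medians were 34.7% in both groups. GC was higher at the summit than in that flank in 189 intergenic peaks and lower in 21 (adjusted p = 1.3e-33, exact sign test, added after the values were seen). Promoter peaks had a similar median at the summit, 49.5%. Single intergenic summits ranged between 23.8% and 69.3%, and 116 were at 50% or more.

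GAGAG, the word that recurs in the sequences printed above, was at 115 of 211 intergenic summits (54.5%, 95% interval 47.5 to 61.4), against 45 flanks (21.3%). It was present only at the summit in 96 peaks and only in the flank in 26 (adjusted p = 1.0e-09, exact McNemar test). Words were counted on both strands, within 50 bp of the summit. All words tested here were already used for all peaks in earlier work on these lists. Their tests are therefore not independent support. The share was 29.7% at promoter summits, an odds ratio of 2.82 (95% interval 1.9 to 4.22, adjusted p = 3.2e-07, two-sided Fisher's exact test). Low-ranked summits had it in 18.5%, an odds ratio of 5.26 (95% interval 3.33 to 8.44, adjusted p = 1.6e-13, Fisher's exact test), in a comparison added after the values were seen. Shares by gap type were 53.3% in divergent, 57.7% in tandem and 25% in convergent gaps, the last from 2 of 8 peaks.

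**Figure D5:**
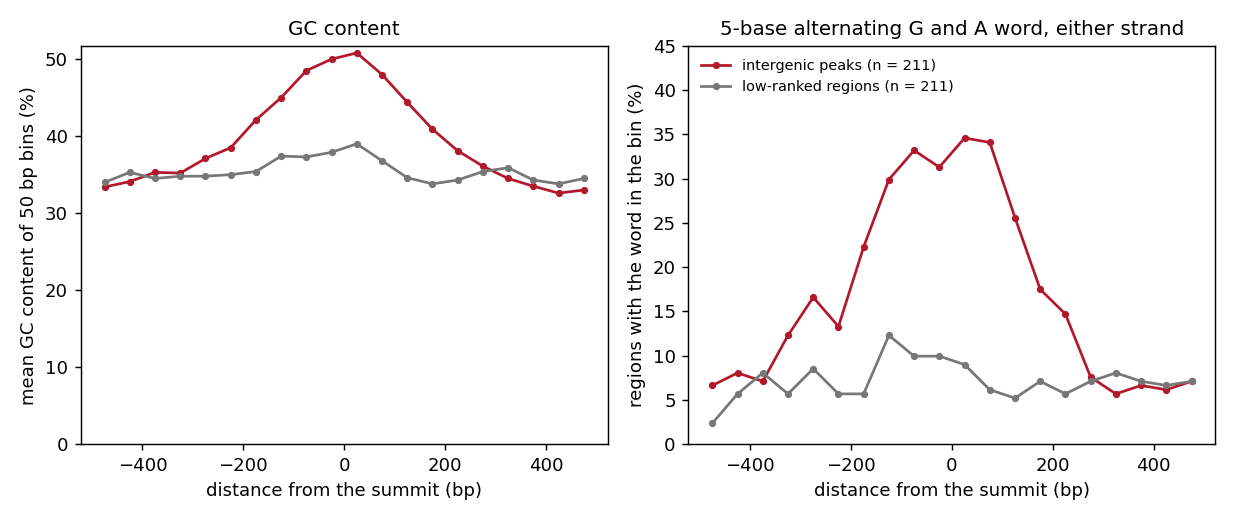
Mean GC content (left) and share of regions with GAGAG or its reverse complement (right) in 50 bp bins by distance from the summit, for intergenic peaks in red and low-ranked regions in grey. At intergenic peaks GC reaches 50.8% and the word 34.6% in the bin just right of the summit, against 39% and 9.0% at low-ranked regions, and both groups are within a few points of each other beyond 400 bp.

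ACACAC, an alternating word with C in place of G, was at 46 intergenic summits (21.8%) and 12 flanks (5.69%), only at the summit in 43 and only in the flank in 9 (adjusted p = 5.4e-06, exact McNemar test). Promoter summits held it in 11.6%, an odds ratio of 2.12 (95% interval 1.25 to 3.65, adjusted p = 0.00618, two-sided Fisher's exact test), and low-ranked summits in 5.69% (adjusted p = 5.4e-06, Fisher's exact test, added likewise). Over the 135 intergenic peaks with no other noncoding RNA gene or pseudogene close by, the difference from promoters was 6.19 percentage points (adjusted p = 0.111, Fisher's exact test). With a promoter window of 1000 bp, which redefines both classes, it was 6.03 points (20% against 14%, adjusted p = 0.136, Fisher's exact test).

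TAAT was less frequent at the summits than beside them. This word, the core of many homeodomain sites, was at 66 intergenic summits (31.3%) and 122 flanks (57.8%), only at the summit in 32 and only in the flank in 88 (adjusted p = 1.3e-06, exact McNemar test). Low-ranked summits held it in 58.3% (adjusted p = 2.1e-07, Fisher's exact test, added likewise) and promoter summits in 38.2%. The difference from promoter summits had an odds ratio of 0.736 with a 95% interval of 0.491 to 1.1 (adjusted p = 0.132, two-sided Fisher's exact test). Without replicate 3 it was -14.4 percentage points (adjusted p = 0.0031, Fisher's exact test). The longer words TAATTG or TAATTA, which contain TAAT, were at 8 summits and 22 flanks (adjusted p = 0.0177, exact McNemar test). That call was lost in 4 of 11 alternatives. The adjusted p in the exact McNemar test was 0.104 with a promoter window of 1000 bp, 0.0527 over peaks above their median signal, 0.111 with word windows of 25 bp each side and 0.0778 without peaks near another noncoding RNA gene or pseudogene. TAAACG was at 1 summit and 7 flanks (adjusted p = 0.0804, exact McNemar test). Against promoter summits, TAATTG or TAATTA stood at 3.79% against 8.49% (adjusted p = 0.0674, Fisher's exact test), and at a difference of -4.83 points without replicate 3 (adjusted p = 0.0478, Fisher's exact test). TAAACG stood at 0.474% against 3.09% (adjusted p = 0.0582, Fisher's exact test).

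Words depend on base composition, and the windows compared differed in it, with a median GC of 50.5% at intergenic summits and 34.7% in their flanks. Within bands of GC content, intergenic summits were set beside the 5691 pooled regions of the same location that overlap no reproducible peak. At 40 to 50% GC, GAGAG was in 44 of 80 intergenic summits (55%), against 614 of 2160 regions (28.4%). At 50 to 60% GC it was in 63 of 102 (61.8%), against 266 of 720 (36.9%). Below 40% GC it was in 3 of 15 (20%), against 403 of 2733 (14.7%), and from 60% GC up in 5 of 14 (35.7%), against 25 of 78 (32.1%). For ACACAC the shares in the middle bands were 23.8% against 8.94% and 23.5% against 10.8%. For TAAT they were 42.5% against 41.5% and 22.5% against 28.2%, and below 40% GC 40% against 68.3%. From 60% GC up TAAT was in 3 of 14 (21.4%), against 8 of 78 (10.3%). No test was run within the bands. The part of GC content in the word results was not tested further.

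The intergenic peaks flanked 381 protein-coding genes, 2.21% of the 17242 on the autosomes, and a flanking gene is only a neighbour. Homeobox genes were 4 of the 381 (1.05%), against 0.412% of autosomal genes. They were ceh-34 and ceh-33, which share a gap, ceh-48 and lin-11. ceh-34, a Six-family gene known for its role in pharyngeal neurons, lay 3512 bp from a peak of 150 in its tandem gap with ceh-33, with 61.3 in replicate 2 and 90.1 in replicate 3. That summit was 105 bp past the 3' end of ceh-33, another Six-family gene. Upstream of ceh-48, a Onecut-family gene, a peak of 201 stood 2174 bp from the 5' end, with 75.7 in replicate 2 and 129 in replicate 3. The LIM homeobox gene lin-11 was 12997 bp from a peak of 123 whose nearer neighbour was csnk-1, a casein kinase gene.

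Among other lists, chemoreceptor genes were 5 of the 381 flanking genes (1.31%), against 7.72% of autosomal genes. Nuclear hormone receptors were 5 (1.31%, against 1.43%), collagens 3 (0.787%, against 0.748%), F-box genes 3 (0.787%, against 1.8%), neuropeptide genes 2 (0.525%, against 0.615%) and C-type lectins 2 (0.525%, against 1.37%). The 1 ribosomal protein gene of 79 was rps-28, 2458 bp from a peak of 121, with 46.0 in replicate 2 and 75.2 in replicate 3. None of 68 histone genes and none of 8 genes of pharyngeal neuromuscular signalling flanked a peak. These shares are counts of neighbours and carry no test, and long gaps offer more room for a peak than short ones.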

How the data were processed

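Peaks came from late embryos of 1 group in 2 biological replicates. Strength was taken from the signal column of narrowPeak lists on ce11 (per the labels), written by the authors' peak caller. No normalization is stated for it. The deposited −log10 q-values ran between 2.4 and 2.71 for the intergenic peaks and entered no test. Per the text files deposited with the lists, the replicate lists (30000 and 29534 regions) and the pooled list (30000) were called with 1 control file, and the reproducible list was derived from them by the irreproducible discovery rate. Aligner, caller, versions and IDR threshold are not given in the sources used here.

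Genes came from Ensembl release 115 and sequence, masking and products from RefSeq, both on WBcel235, the same assembly as ce11, and every region was checked to lie within its chromosomes. Lists were matched by summits within 100 bp. Flanks were windows 300 bp to the left for odd ranks and to the right for even ranks. A share passed at an adjusted p under 0.05, over 24 tests, of which 6 were added after the values were seen. The location rule, words, lists and comparisons were chosen with earlier results of these data known. Named genes were the neighbours of the 25 strongest peaks, of the strongest on each autosome, of the 3 farthest from a 5' end and of gaps with 3 or more peaks, and all neighbours in the homeobox, ribosomal protein or pharyngeal lists. Labels do not say whether the replicates were separate cultures beyond calling them biological. P-values measure spread over peaks of these lists only, and intervals (exact, Clopper-Pearson, at 95% for shares) cover counting error only. The location rule and tests were tested on simulated data. Promoter window, small RNA distance, matching distance, comparison regions, word window, flank, repeat definition, signal and each replicate were varied. Python 3.11.15, numpy 2.4.6, pandas 2.3.3 and scipy 1.17.1 were used.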

Additional observations from a re-analysis of the deposited data

How the results depend on the processing

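Over 19 alternative settings, 193 of 219 recomputed values kept their direction and their side of the threshold, and none changed sign while called. Values are differences in percentage points, intergenic peaks minus the comparison, with calls made at an adjusted p under 0.05. Convergent gaps, TAAACG in both comparisons, and TAAT and TAATTG or TAATTA against promoters gained a call in the settings below, and the other named results lost one or, for 5' ends, had none. With a promoter window of 1000 bp upstream and 200 bp downstream, the share near a 5' end was -2.5 because that window removes such peaks by construction, TAATTG or TAATTA against the flank was -5.62, ACACAC against promoters 6.03, TAAT against promoters -10.3 and divergent gaps 10.6. With 1 replicate left out, so that the strongest regions of the other stood in for the peaks, the share in the stronger 50% ran between -17.6 and -8.69, 3' ends between -10.0 and -6.02, divergent gaps between 8.33 and 11.4, TAAT against promoters between -14.4 and -7.68, and TAATTG or TAATTA against promoters between -4.83 and -2.82. Against all pooled regions of the same location, convergent gaps were -6.49. For peaks above their median signal, 3' ends were -6.1, TAATTG or TAATTA against the flank -8.57 and divergent gaps 6.34. Word windows of 25 bp each side gave TAATTG or TAATTA -3.32. Windows of 100 bp gave TAAACG -5.21 against the flank and -4.97 against promoters, TAAT -12.2 and TAATTG or TAATTA -7.39 against promoters. TAAACG was -4.27 with the flank at 500 bp, and with only the strongest peak of each gap -3.12 against the flank and -3.09 against promoters. Without peaks near another noncoding RNA gene or pseudogene, the central 50% of chromosomes was 5.97, TAATTG or TAATTA against the flank -6.67, ACACAC against promoters 6.19 and divergent gaps 9.73. These last 2 settings were chosen after seeing the data, and beyond the smaller numbers of peaks the cause of these changes was not tested. GAGAG kept its calls in every setting, between 19 and 41.7 against the flank and between 13.3 and 32.8 against promoters. No paired analysis was possible because there is 1 group. Depth is unknown, which limits any statement on weak peaks.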
